A study of Drosophila melanogaster with 75 samples.

Results

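The genes described here encode voltage-gated and calcium-activated potassium channels of Drosophila melanogaster and 1 of their auxiliary subunits. Members are the probe sets whose platform gene symbol is Sh, Shab, Shaw, Shal, eag, sei, slo, KCNQ, SK or Hk. Of these 10 genes 9 had probe sets, 22 in all among 18769 on the array, and KCNQ is not analysed here. They were chosen by symbol, but with log2 differences between the arms of these same arrays already in view, so the differences are given as a description, and an adjusted p only places a probe set among all those tested. RNA came from male heads at 5 days of age, 20 males to a pool and 1 pool to an array, with 5 arrays in each of 3 arms. The flies were Canton-S, a wild-type laboratory stock, isogenized. Males of the courtship arm were kept for 20 min with a virgin female that had been cauterized, and males of the control arm were without a female. A further arm is titled male. Its treatment label is the same as that of the courtship arm, while its title, source name and sample code set it apart, and what those males met is not stated clearly in the labels. The labels of all 3 arms state that collected males had courted. Stock and age are shared by the arms, as are isolation on day 4 and a temperature of 25 °C, and no allele or transgene is named. Errors here are the spread between pools of heads. The first letter of the sample code recurs across arms, and the labels do not say what it marks: A stands for array 1 of each arm, C and D for courtship and control arrays 2 and 3, F for male and control array 4, and H for courtship array 4, male array 5 and control array 5.

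Potassium channels let potassium leave a cell, which ends the action potential and sets how soon the next can follow. In the fly, Shaker, Shab, Shaw and Shal are the founders of 4 families of voltage-gated channels, in which 4 alpha subunits form a pore, and beta subunits such as Hyperkinetic attach to Shaker from inside the cell. Slowpoke opens on voltage and calcium together, SK on calcium bound to calmodulin, and mutations in several of these genes, Shaker and Hyperkinetic among them, are known for leg shaking under ether and for short sleep.

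The authors' R GC-RMA intensities were used on a log2 scale, and a probe set was tested where its mean over the 15 arrays was at least 4, which left 8926 probe sets. Among the channels 17 of 22 probe sets passed, for 8 genes: Sh with 6, SK with 3, Shaw and Hk with 2 each, and Shab, Shal, sei and slo with 1 each. The other 5 probe sets lay near the floor on every array, where the lowest value of any probe set was 1.64: Sh 1632879_at between 2.47 and 2.75, Shab 1633404_at between 2.12 and 2.79, SK 1624040_at between 2.08 and 2.11 and Hk 1630220_at between 2.43 and 2.44. The single probe set of eag, the founder of the ether-a-go-go family, ranged from 2.76 to 2.79, so its level could not be followed. Levels of different probe sets are not compared, since each has its own brightness.

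The heads carried their defining markers. Photoreceptor genes trp and chp summed to between 14.85 and 15.31 on the log2 scale over the 15 arrays, and 0 of 5 testis markers reached a mean of 4. Neuron markers (elav, nSyb, brp and Rim) summed to 11.36 to 12.04 in the courtship arm, 10.41 to 11.55 in the male arm and 11.31 to 12.14 in the control arm. For 3 pools the RNA differed from the rest in the 3′ to 5′ ratio. This is here a mean log2 value over 5 pairs of 3′ and 5′ control probe sets, and is high in degraded RNA. The pairs are of actin, GAPDH and eIF-4a, so some transcripts count more than once. The ratio was 3.99 on male array 1, 3.26 on male array 5 and 3.54 on control array 1, against 2.50 to 2.90 on the other 12 arrays. Correlations between arrays ran from 0.939 to 0.996.

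All 17 tested channel probe sets had a lower mean in the male arm than in the control arm, and likewise in the courtship arm than in the control arm. The male arm lay lowest and the courtship arm in between for 15 of the 17. For the other 2, sei 1629418_s_at and SK 1627752_s_at, the courtship arm lay lowest. The median log2 difference over the 17 was -0.26 for courtship minus control, -0.70 for male minus control and 0.34 for courtship minus male, beside medians of 0.01, 0.02 and -0.01 over all 8926 probe sets. Courtship and male are each set against the same 5 control arrays, so the first 2 medians are not separate observations.

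**Figure D1:**
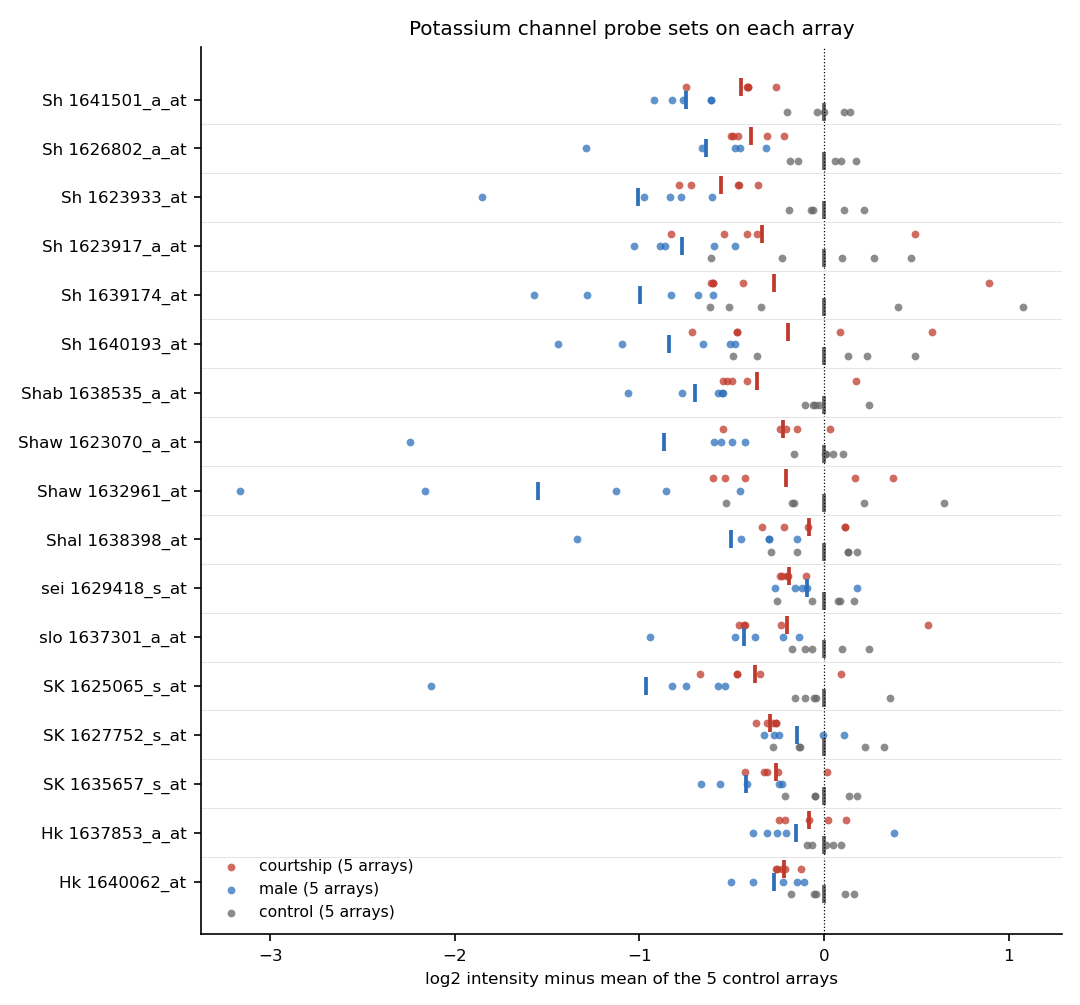
Log2 intensity of the 17 tested potassium channel probe sets on each of the 15 arrays, minus that probe set's mean over the 5 control arrays. Points are arrays, vertical ticks are arm means, and the male arm has the lowest mean in 15 of 17 rows.

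Courtship was set against control to ask what differs in head RNA once males have spent 20 min with a female. At an adjusted p under 0.05 limma called 0 of 17 channel probe sets (0% of all 8926 probe sets). At an unadjusted p under 0.05, 8 of 17 were lower, from Sh, Shab, sei, SK and Hk, where 1.22% of all probe sets were lower and 2.86% differed in either direction. On 3 of 17, all of Sh, the 5 courtship arrays lay wholly below the 5 control arrays, which held for 0.246% of all probe sets. Below 0 were 17 of 17 differences, where 45.6% of all were. These shares describe genes chosen with such differences in view, and nothing is read from them.

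Male against control gave 6 of 17 channel probe sets with an adjusted p under 0.05, all lower in the male arm, where 1.49% of all probe sets were called lower and 3.66% in either direction. The 6 were 3 probe sets of Sh, 1 of Shab and 2 of SK. Arms without overlap were seen for those 6 and for Shaw 1623070_a_at, 7 of 17, where 3.73% of all probe sets lay wholly lower. Differences below 0 numbered 17 of 17, where 47.1% of all were below 0, and they ranged from -1.55 to -0.09. At an unadjusted p under 0.05 the count was 14 of 17 lower, beside 15.6% of all. With male arrays 1 and 5 left out, limma called 0 of 17 channel probe sets and 0 of all 8926, while at an unadjusted p under 0.05 it gave 13 of 17 lower and 1962 of all in either direction. All 17 stayed below 0 there, with a median of -0.53. With the code letter as a block 7 of 17 were called, beside 11% of all. With 1 array left out, the 6 calls became 10 without courtship 2, beside 11.5% of all probe sets. They became 3 without courtship 4, 2 without courtship 1, courtship 3, male 2 or control 5, and 1 without male 5, control 3 or control 4, beside 0.0784% to 0.795% of all. Without control 2 limma called 0 of 17 and 0 of all 8926. At an unadjusted p under 0.05 it then gave 13 of 17 lower and 2346 of all 8926 in either direction.

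Between the courtship and male arms limma called 0 of 17 channel probe sets (0% of all), and at an unadjusted p under 0.05 it gave 8 of 17 higher in the courtship arm, beside 7.95% of all. On no channel probe set did these arms lie apart, where the courtship arm lay wholly higher on 0.818% of all probe sets. Below 0 were 2 of 17 differences, where 51.9% of all were below 0, and they belonged to sei 1629418_s_at and SK 1627752_s_at.

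**Figure D2:**
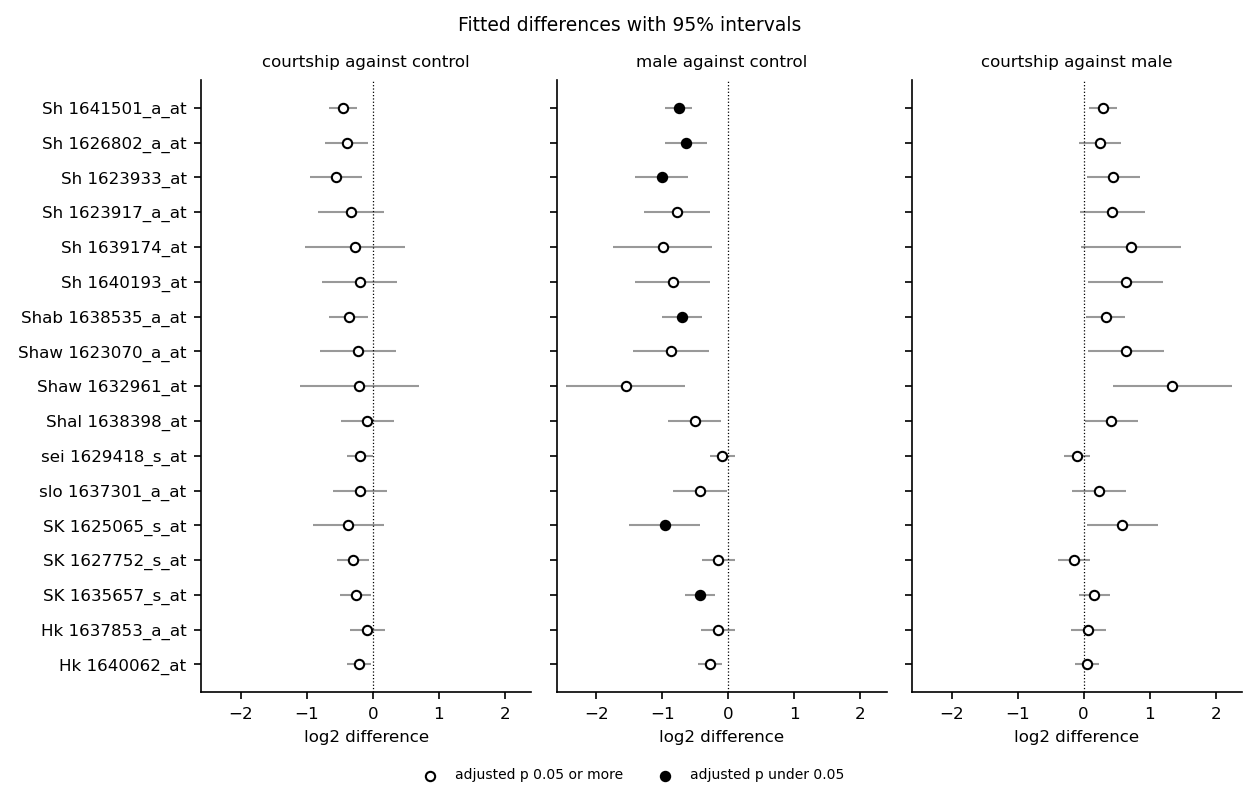
Fitted log2 difference of each tested channel probe set in the 3 comparisons, with 95% intervals from limma. Filled points have an adjusted p under 0.05: 0 for courtship minus control, 6 for male minus control and 0 for courtship minus male.

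Sh encodes the alpha subunit of Shaker, the channel of the fast inactivating A-type current of fly muscle and neurons. Its brightest probe set, 1641501_a_at, read 11.47, 11.62, 11.47, 11.47 and 11.14 in courtship heads, 11.27, 11.06, 11.12, 11.27 and 10.97 in male-arm heads, and 11.88, 12.02, 11.99, 11.85 and 11.68 in control heads. Every courtship array and every male array lay below the lowest control array, while the courtship and male arms overlapped, since courtship array 5 lay within the male range. The difference was -0.45 ± 0.10 (SE) in courtship against control, with a 95% interval of -0.66 to -0.25 and an adjusted p of 0.389. In male against control it was -0.75, a 1.68-fold lower level, with an interval of -0.95 to -0.54 and an adjusted p of 0.0130. For courtship minus male it was 0.29 with an interval of 0.09 to 0.50.

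Probe set 1623933_at of Sh read 9.91, 10.33, 10.23, 10.23 and 9.97 in courtship heads, 8.84, 9.92, 9.85, 10.08 and 9.72 in male-arm heads, and 10.80, 10.63, 10.50, 10.90 and 10.62 in control heads. Again both arms lay below all 5 control arrays, and male array 1 was by far the lowest of the 15. Its difference was -0.56 in courtship against control and -1.01, or 2.01-fold lower, in male against control (adjusted p = 0.0291). Without male array 1 the male difference was -0.80.

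Probe set 1626802_a_at of Sh read 10.14, 10.34, 10.43, 10.15 and 10.18 in courtship heads, 9.36, 9.98, 10.19, 10.16 and 10.33 in male-arm heads, and 10.70, 10.74, 10.46, 10.81 and 10.50 in control heads. The courtship and male ranges lay under the control range, here by a narrow margin, since courtship array 3 and control array 3 nearly met. The difference was -0.40 in courtship against control and -0.64 in male against control (adjusted p = 0.0387).

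The 3 dimmer tested probe sets of Sh varied more within the courtship and control arms. For 1623917_a_at the arms averaged 5.96 ± 0.49, 5.52 ± 0.23 and 6.29 ± 0.43 in courtship, male and control heads (SD, n = 5 each), and for 1639174_at 5.22 ± 0.66, 4.50 ± 0.42 and 5.50 ± 0.72. For 1640193_at they averaged 4.92 ± 0.53, 4.28 ± 0.42 and 5.12 ± 0.42. All arms overlapped on each of these, with adjusted p-values in male against control of 0.0582, 0.0804 and 0.0631. Courtship array 2 gave the highest courtship value on all 3, as high as the upper control arrays.

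**Figure D3:**
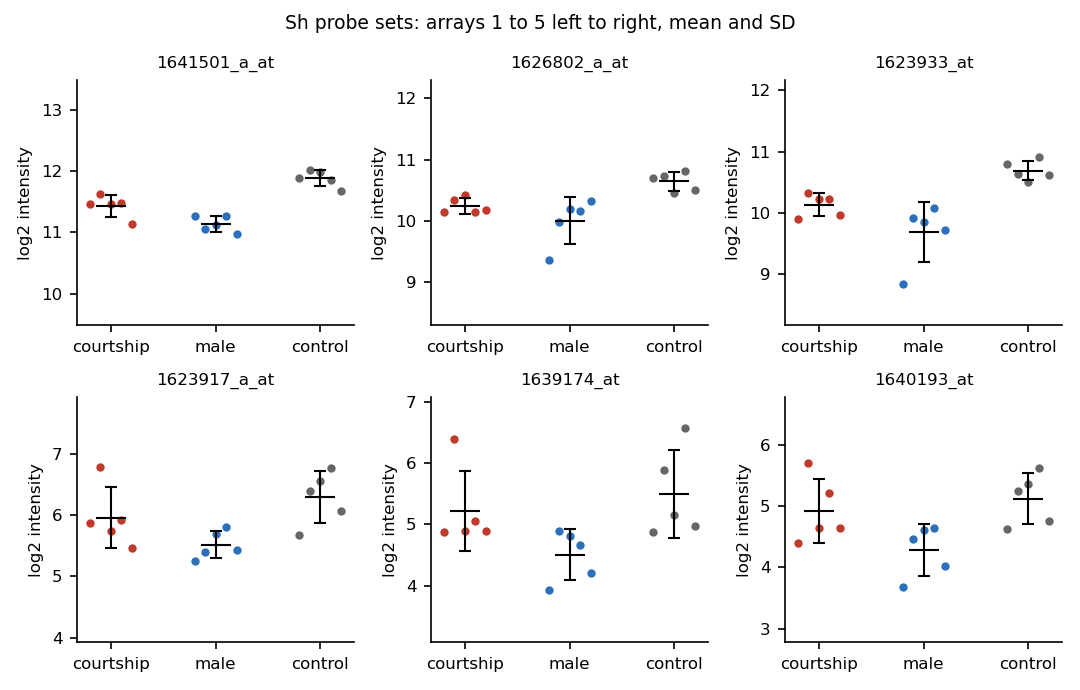
Log2 intensity of the 6 tested Sh probe sets in the 3 arms, with points for arrays 1 to 5 from left to right and bars for mean and SD. On the upper 3 the courtship and male arrays all lie below the control arrays, and on the lower 3 the arms overlap.

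Shab encodes a delayed rectifier, a slowly inactivating channel that repolarises neurons. Shab 1638535_a_at read 5.23, 5.90, 5.31, 5.18 and 5.20 in courtship heads, 4.96, 5.16, 5.18, 5.18 and 4.67 in male-arm heads, and 5.62, 5.68, 5.97, 5.67 and 5.70 in control heads. All male arrays lay below all control arrays. Of the courtship arrays 4 did so too, while array 2 lay inside the control range. The difference was -0.36 in courtship against control and -0.70 in male against control (1.63-fold lower, adjusted p = 0.0364).

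Shaw encodes a channel of low voltage sensitivity that in the fly carries part of the resting potassium current. Shaw 1623070_a_at read 7.28, 7.56, 7.32, 7.38 and 6.98 in courtship heads, 5.28, 6.96, 7.09, 7.02 and 6.93 in male-arm heads, and 7.53, 7.53, 7.63, 7.57 and 7.36 in control heads. The male arrays lay below the control arrays, 4 of them close together and array 1 far lower. The male difference of -0.87 (adjusted p = 0.0614) came to -0.52 without male array 1. The courtship difference was -0.22, with overlap.

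Shaw 1632961_at read 6.12, 7.10, 6.18, 6.89 and 6.29 in courtship heads, 4.56, 5.87, 6.27, 5.60 and 3.56 in male-arm heads, and 6.19, 6.56, 6.94, 7.37 and 6.55 in control heads. Male array 3 overlapped the control range, and male arrays 1 and 5 were the lowest of the 15. Its difference of -1.55 in male against control (adjusted p = 0.0506, interval -2.45 to -0.65) was the largest among the 17, and it was -0.81 with male arrays 1 and 5 left out. Courtship minus male was 1.35 (adjusted p = 0.325, interval 0.45 to 2.25).

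Shal encodes the A-type channel of the cell body and dendrites. Shal 1638398_at read 7.00, 7.00, 6.68, 6.56 and 6.80 in courtship heads, 6.75, 6.60, 6.59, 6.44 and 5.55 in male-arm heads, and 7.02, 7.02, 7.07, 6.74 and 6.60 in control heads. The 3 arms overlapped, with male array 5 far below the rest. The difference was -0.08 in courtship against control (interval -0.49 to 0.32) and -0.51 in male against control (adjusted p = 0.0892), and without male array 5 the male difference was -0.30.

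The sei gene, named for its seizure mutants, encodes a channel of the ERG type. Its probe set, sei 1629418_s_at, belongs to a class whose probes can match transcripts of more than 1 gene, so its values are uncertain. It read 9.55, 9.45, 9.42, 9.46 and 9.41 in courtship heads, 9.83, 9.50, 9.53, 9.56 and 9.39 in male-arm heads, and 9.74, 9.81, 9.72, 9.58 and 9.40 in control heads. Here the courtship arm was the tightest and lowest, and control array 5 lay just under the lowest courtship array. Differences were -0.19 in courtship against control (interval -0.38 to -0.0016) and -0.09 in male against control (adjusted p = 0.474, interval -0.28 to 0.10).

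Among the calcium-activated channels, slo encodes the large-conductance Slowpoke channel. Its probe set 1637301_a_at read 8.15, 9.15, 8.12, 8.36 and 8.16 in courtship heads, 8.21, 8.45, 8.11, 8.37 and 7.64 in male-arm heads, and 8.41, 8.83, 8.52, 8.69 and 8.48 in control heads. Of the courtship arrays 4 lay below every control array and array 2 above them all. The male arm overlapped the control arm through array 2. The difference was -0.20 in courtship against control (interval -0.61 to 0.21) and -0.43 in male against control (adjusted p = 0.130).

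SK encodes the small-conductance channel, which follows calcium through bound calmodulin. Its 3 tested probe sets are all of the class that can match more than 1 gene, which makes them uncertain. SK 1625065_s_at read 11.23, 11.79, 11.23, 11.36 and 11.03 in courtship heads, 9.58, 10.95, 11.13, 11.17 and 10.88 in male-arm heads, and 11.66, 11.65, 11.60, 12.06 and 11.55 in control heads. The male arrays lay below the control arrays, array 1 by far the lowest, and courtship array 2 lay inside the control range. The difference in male against control was -0.96 (1.95-fold lower, adjusted p = 0.0488), and -0.67 without male array 1. In courtship against control it was -0.37 with an interval of -0.91 to 0.16.

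SK 1635657_s_at read 5.83, 6.16, 5.82, 5.89 and 5.71 in courtship heads, 5.72, 5.91, 5.58, 5.47 and 5.90 in male-arm heads, and 6.27, 6.09, 6.09, 6.32 and 5.93 in control heads. The male and control ranges were apart by a small margin and the courtship range overlapped control through array 2. The difference in male against control was -0.42 (adjusted p = 0.0476). That value depended on the processing, since the dChip PM values gave 0.02 for the same comparison.

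SK 1627752_s_at read 9.56, 9.45, 9.56, 9.51 and 9.54 in courtship heads, 9.93, 9.58, 9.50, 9.55 and 9.81 in male-arm heads, and 10.15, 10.04, 9.69, 9.68 and 9.54 in control heads. On this probe set male arrays 1 and 5 were the highest of their arm, whereas they were the lowest on 1625065_s_at. The difference was -0.30 in courtship against control and -0.15 in male against control (adjusted p = 0.365).

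Hk encodes Hyperkinetic, the beta subunit of Shaker, which resembles an oxidoreductase. Hk 1637853_a_at read 11.72, 11.52, 11.62, 11.39 and 11.36 in courtship heads, 11.29, 11.22, 11.35, 11.40 and 11.98 in male-arm heads, and 11.65, 11.70, 11.61, 11.54 and 11.51 in control heads. Of the male arrays 4 lay below the control range and array 5 above it. The difference in male against control was -0.15 (adjusted p = 0.380, interval -0.42 to 0.11), and in courtship against control -0.08.

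Hk 1640062_at read 6.13, 6.26, 6.16, 6.18 and 6.13 in courtship heads, 5.89, 6.0, 6.16, 6.24 and 6.28 in male-arm heads, and 6.55, 6.50, 6.35, 6.33 and 6.21 in control heads. Both arms overlapped control through control array 5. The difference was -0.22 in courtship against control and -0.27 in male against control (adjusted p = 0.0609).

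Probe sets of 1 gene shared the sign of their differences for Sh, Shaw and Hk in all 3 comparisons, and for SK in both comparisons against control. In male against control the 6 of Sh ran from -1.01 to -0.64, the 2 of Shaw from -1.55 to -0.87, the 3 of SK from -0.96 to -0.15 and the 2 of Hk from -0.27 to -0.15. The widest gap in size was thus within SK. SK 1627752_s_at minus SK 1625065_s_at averaged -1.07 ± 0.83 in male-arm heads and -1.88 ± 0.34 in control heads (SD, n = 5 each). In the male arm it ran from -1.63 to 0.35, the highest on male array 1. Shaw 1632961_at minus Shaw 1623070_a_at averaged -1.49 ± 1.09 in male-arm heads and -0.80 ± 0.42 in control heads. In the male arm it ran from -3.37, on male array 5, to -0.72. Both male averages thus lean on single arrays of high 3′ to 5′ ratio. For each gene with several tested probe sets, the difference of each from the brightest overlapped between the male and control arms and between the courtship and control arms.

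Per array, the median over the 17 probe sets of the deviation from the control mean was -0.42, 0.03, -0.42, -0.31 and -0.47 on courtship arrays 1 to 5, -0.77, -0.57, -0.48, -0.48 and -0.86 on male arrays and 0.01, 0.10, 0.01, 0.10 and -0.18 on control arrays. The 5 male arrays lay below the other 10, with courtship array 5 within 0.02 of male arrays 3 and 4. Courtship array 2 stood with the controls and was the highest of its arm on 13 of 17 probe sets. Without it the courtship median against control was -0.39.

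The 3′ to 5′ ratio averaged 2.68 ± 0.06 in courtship heads, 3.05 ± 0.60 in male-arm heads and 2.89 ± 0.38 in control heads (SD, n = 5 each). The 2 lowest male arrays, 1 and 5, were those with high ratios. Control array 1, whose ratio was also high, stood at 0.01, level with the controls, though the control mean includes this array. It was the lowest control array on 6 of 17 probe sets and the highest on 2, so that median covers departures in both directions. Male arrays 2, 3 and 4, with ratios of 2.74, 2.50 and 2.75 inside the range of the other arrays, lay between -0.57 and -0.48. With the ratio as a covariate the median difference was -0.40 in courtship against control and -0.67 in male against control.

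Neuron markers were also lower on average in the male arm, though not each of them on every array. All 7 tested probe sets of elav, nSyb, brp and Rim were below 0 in male against control, with a median of -0.78, where 47.1% of all probe sets were below 0. Called were 2, beside 1.49% of all called lower. Both were of Rim, which scaffolds calcium channels and vesicles at the presynaptic membrane. In courtship against control 6 of 7 were below 0, with a median of -0.18 and 0 called by limma, and Rim 1623169_at alone had an unadjusted p under 0.05. There elav stood at 0.03, nSyb at -0.01, and brp at -0.02 and -0.18. The probe sets of Rim ran from -0.77 to -0.35. The median deviation of the 7 neuron probe sets per array was -0.19, 0.32, -0.31, -0.19 and -0.39 in courtship heads, -2.21, -0.40, -0.32, -0.41 and -1.36 in male-arm heads and -0.16, 0.11, 0.04, 0.39 and -0.19 in control heads. Male arrays 1 and 5 and courtship array 2 stood out here as they did for the channels. In the male arm elav 1636615_at read 6.13, 8.25, 8.53, 8.15 and 8.62, beside a control mean of 8.36. For brp 1636216_at the male arrays read 2.88, 5.74, 5.61, 5.51 and 5.79, beside a control mean of 5.54. On the 2 called probe sets of Rim every male array lay below every control array. Muscle markers, 5 probe sets of up, sls and Mlc2, were all below 0 in male against control too, with a median of -0.52 and 1 of sls called, and the photoreceptor gene trp was called at -0.34. Glial markers repo, nrv2 and moody lay between 0.07 and 0.14 there, and 2 probe sets each of fat body and haemocyte markers were above 0. The part of RNA quality and of cell makeup in the channel differences was not tested, and in bulk heads fewer neurons and less channel RNA per neuron cannot be told apart.

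**Figure D4:**
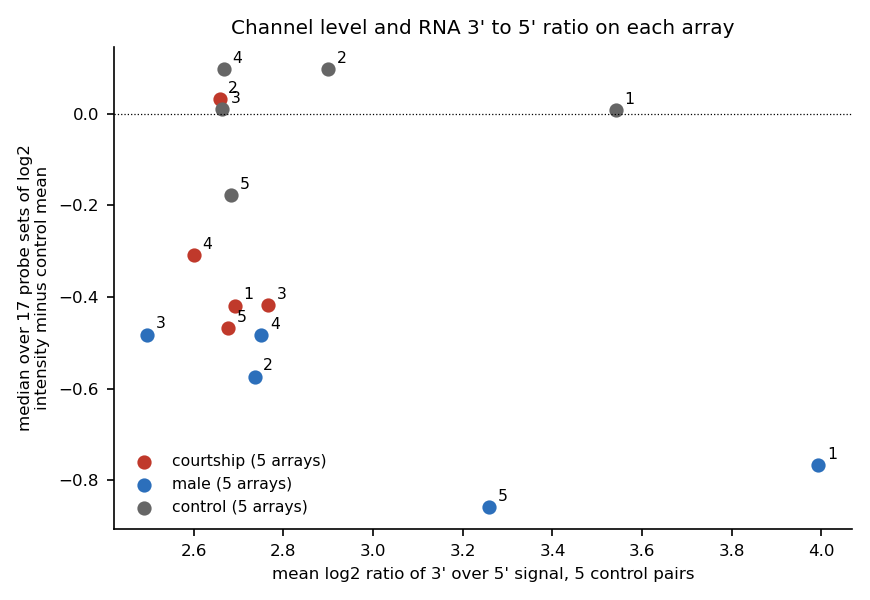
Median over the 17 channel probe sets of log2 intensity minus the control mean (vertical axis) against the 3′ to 5′ ratio on the log2 scale (horizontal axis), 1 point per array with its replicate number. Male arrays 1 and 5 lie at ratios of 3.99 and 3.26 with medians of -0.77 and -0.86, and control array 1 at 3.54 with 0.01.

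The sizes differed between the authors' processings of the same arrays. For Sh 1641501_a_at the male against control difference was -0.75 in R GC-RMA, -0.74 in GeneSpring GC-RMA, -0.64 in MAS5, -0.51 in dChip PM and -0.52 in dChip PM-MM, and it was -0.73 with male arrays 1 and 5 left out. That probe set thus kept nearly its full size without the 2 arrays, whereas Shaw 1632961_at stood at -0.81 and SK 1625065_s_at at -0.62. For Sh 1623933_at the difference was -1.01 in R GC-RMA and -0.50 in dChip PM, a smaller size by more than 1.5 times. For Shab 1638535_a_at it was -1.15 in MAS5 and -0.56 in dChip PM.

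**Figure D5:**
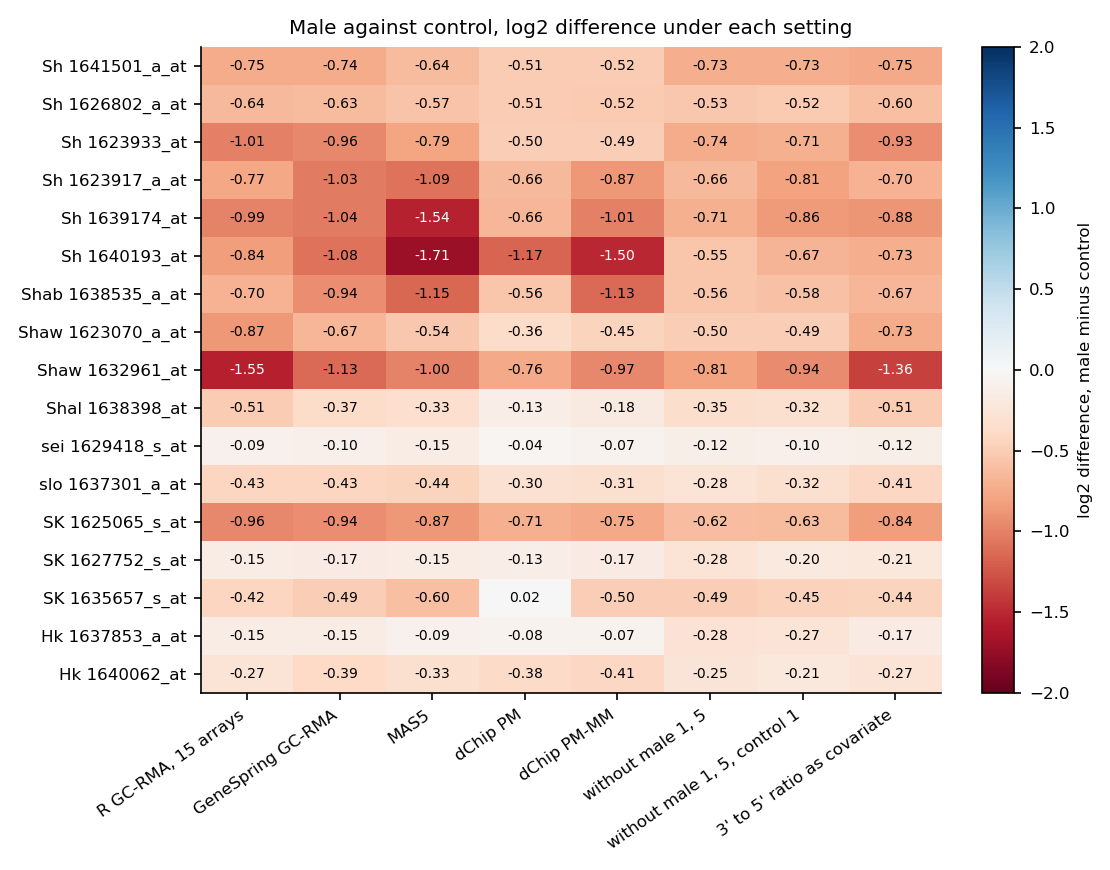
Log2 difference of each channel probe set in male against control (rows) under 8 settings (columns), as numbers and as colour from red (lower in the male arm) to blue. All cells are below 0 except SK 1635657_s_at in dChip PM, at 0.02.

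Other genes around the channels were taken from 3 lists. For their counts in male against control, the shares over all 8926 probe sets were 47.1% below 0 and 1.49% called lower. At an unadjusted p under 0.05 from limma, 15.6% of all were lower. The first, 12 other channel genes, had 10 tested probe sets. It held Elk, Shawl and SLO2 beside inward rectifiers, 2-pore channels and the mixed cation channel Ih. In male against control 8 of 10 were below 0 with a median of -0.19, 0 were called by limma, and 3 lower and 1 higher had an unadjusted p under 0.05. The 3 lower were SLO2 1629587_at at -1.83, Elk 1628097_at at -0.73 and Ih 1633582_at at -0.22. SLO2 1629587_at read 3.53, 6.72, 7.36, 7.10 and 4.88 in male-arm heads, beside a control mean of 7.75. The smallest p belonged to Irk2 1638466_a_at, an inward rectifier, which averaged 10.59 in male-arm heads and 10.25 in control heads, with every male array above every control array (0.33, adjusted p = 0.0506). In courtship against control the median was -0.06, with 0 called and 0 at an unadjusted p under 0.05, and Ih 1633582_at led at -0.12. Between courtship and male 0 were called by limma and 2 had an unadjusted p under 0.05, led by Irk2 1638466_a_at at -0.29.

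Channel partners, here scaffolds and regulators of potassium channels, gave 13 tested probe sets for 7 of the 9 genes listed. In male against control 12 of 13 were below 0 with a median of -0.35, and 1 was called. This was dlg1 1640119_a_at, a probe set of Discs large, the scaffold that clusters Shaker at the synapse. It averaged 9.03 in male-arm heads and 9.50 in control heads (-0.47, adjusted p = 0.0386). The other tested probe sets of dlg1 differed in size and 1 in sign, with 1624021_a_at at -0.99, 1635382_at at -0.28 and 1627882_at at 0.04. In courtship against control the median was -0.13 with 0 called by limma and 1 at an unadjusted p under 0.05, qvr 1635961_at at -0.23. For courtship minus male limma called 0 and 4 had an unadjusted p under 0.05, led by dlg1 1640119_a_at at 0.30.

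Voltage-gated sodium and calcium channel genes gave 7 tested probe sets. In male against control 6 of 7 were below 0 with a median of -0.51, and 2 were called. NaCP60E 1624241_at, a voltage-gated cation channel, averaged 7.82 in male-arm heads and 9.22 in control heads (-1.40, adjusted p = 0.0386). It read 7.02, 8.09, 8.50, 8.23 and 7.28 on male arrays 1 to 5. Ca-alpha1D 1640092_a_at, the pore subunit of the L-type calcium channel, averaged 9.05 in male-arm heads and 9.56 in control heads (-0.51, adjusted p = 0.0386). In courtship against control the median was -0.21 with 0 called by limma and 1 at an unadjusted p under 0.05, stj 1627533_at, the alpha2-delta subunit, at -0.46. Courtship minus male gave 0 called by limma, and 2 had an unadjusted p under 0.05, led by NaCP60E 1624241_at at 0.92. With male arrays 1 and 5 left out, 0 probe sets of the 3 lists were called in male against control, as was so for all 8926. With single arrays left out the 3 calls became 0 to 7. The 7 came without courtship 2, where 11.5% of all probe sets were called.

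Across arrays, after subtraction of each arm's mean, the profile of Sh 1641501_a_at was most like that of qvr among 7312 other genes, each taken by its brightest probe set. Pearson's r was 0.929 over 15 arrays, and 0.941 over the 12 arrays without male 1, male 5 and control 1. This likeness is that of 1 probe set of Sh and 1 of qvr, 1635961_at. Other tested probe sets of qvr were not compared. Of these, qvr 1627019_s_at read 3.69 on male array 1 and 4.09 on male array 5, beside a control mean of 7.31. With Sh 1626802_a_at and Sh 1623933_at the r of Sh 1641501_a_at was -0.16 and -0.05 over 15 arrays, and 0.34 and 0.35 over the 12. Those 2 had an r of 0.84 with each other over 15 arrays. With the dimmer 1623917_a_at, 1639174_at and 1640193_at of Sh, 1641501_a_at had r of 0.54, 0.30 and 0.36 over 15 arrays. The qvr gene encodes Quiver, also called Sleepless, a membrane-anchored protein that binds Shaker. Next came Cirl, an adhesion receptor of the latrophilin type, at 0.919, flw, a catalytic subunit of protein phosphatase 1, at 0.899, Csp, a chaperone of synaptic vesicles, at 0.891, and CG4887 at 0.891. These values share arrays and scaling, are a description only, and carry no test.

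Within the channel genes the same measure gave 0.68 for sei, 0.58 for slo, 0.54 for Shal and 0.54 for Shab. It was near 0 for SK at 0.03, Shaw at -0.03 and Hk at -0.03 over 15 arrays. Over the 12 arrays without the 3 of high 3′ to 5′ ratio these were 0.56 for SK, 0.86 for Shaw and 0.62 for Hk. On male array 1 Shaw and SK stood far below their arm while Sh 1641501_a_at did not, and on male array 5 Hk stood above its arm.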

How the data were processed

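RNA from 15 pools of male heads was hybridised to 15 Affymetrix arrays. The authors deposited 75 columns of linear intensity, 15 arrays in 5 processings (dChip PM, dChip PM-MM, MAS5, and GC-RMA in R and in GeneSpring) per the labels. GCOS 1.2 and GCRMA are the tools given, per the submitters' processing notes. GC-RMA models background from probe sequence, which compresses dim probe sets. Here log2 of the R GC-RMA values was used. In PM-MM, 746 values under 1 were set to 1, 0 of them of channel probe sets. Without 183 AFFX controls, 8926 of 18769 probe sets with a mean log2 of at least 4 were tested. A limma 3.58.1 model of 3 arms in R 4.3.3 (12 residual degrees of freedom, prior 2.6) gave the contrasts, with Benjamini-Hochberg adjustment over the 8926. Figures used Python 3.11.15 and matplotlib 3.10.9.

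Symbols came from the platform annotation, and a current gene table matched 22 of 22 channel probe sets and changed 0 names. The members, gene lists and settings were chosen with earlier results of these data known. Named genes are all channel probe sets, list members called in a contrast (or with the smallest p where none was), and the 5 genes most like Sh 1641501_a_at. Elk and SLO2 are named as well, for an unadjusted p under 0.05 in male against control. Alternatives were the other processings, filters, scalings, blocks, variance settings, thresholds and omitted arrays. The fit was tested on simulated data.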

Additional observations from a re-analysis of the deposited data

Results flagged for a closer look

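Of 51 sets of 5 arrays, 1 for each arm and channel probe set, 9 had an array whose gap to the nearest other was over 0.71 of the range, Dixon's limit for 5 values, which chance passes in about 1 of 20. Courtship array 2 was the high one on 3: Sh 1639174_at at 6.39 against 5.06 for the next, Shab 1638535_a_at at 5.90 against 5.31, and slo 1637301_a_at at 9.15 against 8.36. Male array 1 was the low one on Shaw 1623070_a_at at 5.28 against 6.93 and on SK 1625065_s_at at 9.58 against 10.88. Male array 5 was the low one on Shal 1638398_at at 5.55 against 6.44, and the high one on Hk 1637853_a_at at 11.98 against 11.40. Among control arrays, array 3 was high on Shab 1638535_a_at at 5.97 against 5.70 and array 4 on SK 1625065_s_at at 12.06 against 11.66.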

How the results depend on the processing

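Most directions held, while the counts of calls varied. Among values of single probe sets under alternatives, 1436 kept direction and side of the threshold, 48 passed it newly, 75 no longer passed it and 7 turned sign. Most of these values were not called to begin with. Of the 6 that were, Sh 1641501_a_at was called in 28 of 31 alternatives, Sh 1623933_at in 24 of 31 and Sh 1626802_a_at in 15 of 31. Shab 1638535_a_at was called in 18 of 30, SK 1625065_s_at in 14 of 31 and SK 1635657_s_at in 9 of 30. Channel probe sets called in male against control numbered 6 of 17, and 2 in MAS5, 1 with no filter on low values, 13 with a replicate block, 13 with array weights, 13 at an adjusted p under 0.10, 10 with the 3′ to 5′ ratio as covariate, and 0 without male arrays 1 and 5, also without control array 1. All probe sets called numbered 327, and 400 in dChip PM, 613 in GeneSpring GC-RMA, 166 in MAS5, 64 in PM-MM, 12 with no filter, 1690 with the replicate block, 980 with the code letter as a block, 1873 with array weights, 2083 at an adjusted p under 0.10, 1009 with the covariate, and 0 without male 1 and 5, also without control 1. Leaving out single arrays gave 0 to 10, 0 without control 2 (0 of all) and 10 without courtship 2 (1027 of all). In courtship against control 0 were called, 1 with array weights (12 of all), and 0 whichever single array was left out. In courtship against male 0 were called, 1 with the sample code letter as a block, where 169 of all 8926 (1.89%) were, and 0 whichever single array was left out.

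The median in male against control was -0.50 in dChip PM, -0.50 in PM-MM and -0.52 without male 1, male 5 and control 1, and -0.74 to -0.60 with single arrays left out. With single arrays left out it ran from -0.39 to -0.20 in courtship against control and from 0.23 to 0.38 in courtship against male. List genes called in male against control numbered 3, and 5 in dChip PM, GeneSpring GC-RMA, with centred arrays and with the letter block, 6 at a mean of at least 6, with quantile normalization and with trend and robust variance, 14 with the replicate block and with array weights, 13 at 0.10, 11 with the covariate, 0 with no filter and 0 in both fits without male 1 and 5, with 0 to 7 for single arrays left out. In courtship against male 1 was called with the letter block. Of all probe sets tested in male against control, 6.41% were called with centred arrays and 8% at a mean of at least 6. With quantile normalization 8.12% were called and with trend and robust variance 7.07%, beside the 3.66% given above.

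Signs turned for SK 1635657_s_at in dChip PM (0.015 for male minus control and -0.27 for courtship minus male), for Hk 1640062_at in courtship against male with quantile normalization (-0.0041) and without male array 1 (-0.00012), for Shaw 1632961_at in courtship against control with the letter block (0.065), for Hk 1637853_a_at in courtship against male with it (-0.057), and for slo 1637301_a_at in courtship against male with array weights (-0.014). The cause was not tested. Called values that moved by over 1.5 times were Sh 1623933_at, at -0.50 in dChip PM and -0.49 in PM-MM, Shab 1638535_a_at, at -1.13 in PM-MM and -1.15 in MAS5, and SK 1625065_s_at, at -0.62 without male 1 and 5. The labels do not say that replicate numbers pair the arrays, and not every same-numbered pair deviated together: of 15, 10 correlated over 0.1 (r from -0.29 to 0.47) and 8 were best with their own number, a hint of shared deviation. Of the 7 pairs that also share a code letter, 5 correlated over 0.1 (r from -0.03 to 0.47). The number of arrays limits precision, and 5 dim channel probe sets give no test.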
